A study of Mus musculus with 6 samples.

Results

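The genes described here are 41 mouse genes that act in the repair of DNA double-strand breaks, taken by name from a table of 21468 protein-coding genes whose 5′ end could be placed. They were named by function, and the rule uses no measured value. For each gene and each of 6 ATAC-seq libraries it was recorded whether an accessible region, called as a peak, lay within 1 kb or 3 kb of the 5′ end, how wide that peak was, and how many further peaks lay in the gene body. All 41 were found in the table, H2afx under the newer symbol H2ax.

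ATAC-seq marks open chromatin by the places where the Tn5 transposase can insert adapters, and a peak is a stretch where such insertions pile up. Each library was made from 50000 cells of testes at postnatal day 5 (Pnd 5), enriched for spermatogonia, the mitotic germ cells, by a plating step that removes somatic cells. S7KO mice are constitutive knockouts that lack both Sirt7 copies (Sirt7-/-) and WT mice carry the intact gene, both on the 129S1/Sv background, and each genotype gave 3 libraries, numbered 1, 2 and 4. The contrast asks whether loss of SIRT7, a histone deacetylase, altered accessibility. The study's methods describe the ATAC-seq as 3 independent biological replicates, and the labels do not say whether these were separate animals or litters. The p-values set the difference between genotypes against the spread between these libraries.

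A break in both DNA strands can be closed by end joining, in which the Ku proteins hold the ends and DNA ligase IV seals them, or by homologous recombination, in which the ends are cut back to single strands and a sister chromatid serves as the template. The ATM and ATR kinases signal the break, and chromatin factors around phosphorylated H2AX steer the choice between both routes. In the germ line the recombination route also repairs the programmed breaks of meiosis, which spermatogonia have not yet entered.

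Between 105754 and 133695 peaks were listed per library, with the fewest in WT replicate 2 and the most in WT replicate 4, and sequencing depth was not stated in the lists. A peak lay within 1 kb of the 5′ end of Sirt7 in all 6 libraries, with widths of 1989, 2071 and 1212 bp in S7KO replicates 1, 2 and 4 and 2113, 1907 and 1872 bp in WT, so presence of this peak gave no check of the genotype labels. All 9 spermatogonial marker genes examined had a promoter peak in every library, but so did 6 of 7 Sertoli cell markers and all 5 peritubular and stromal markers. Of the markers of Leydig cells 2 of 5 and of blood and endothelium 1 of 3 had one in every library. A promoter peak is thus a weak mark of cell type, and these peak lists do not give the share of other cells in the samples.

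The promoters of the repair genes were open in both genotypes. A peak lay within 1 kb of the 5′ end in all 6 libraries at 39 of the 41 genes, where 68.1% of all protein-coding genes had one. Within 3 kb it was 40 of 41, where 74.0% of protein-coding genes had one. By library, S7KO replicates 1, 2 and 4 had such a peak at 40, 39 and 39 of them, while the WT replicates had it at 39, 39 and 41. Over all protein-coding genes the share lay between 69.1% and 70.8% in each library (Wilson 95% intervals from 68.4% to 71.4%, counting error only). No gene lacked a promoter peak in every library. The number of repair genes with a promoter peak averaged 39.33 ± 0.577 in S7KO libraries against 39.67 ± 1.15 in WT libraries (SD, n = 3 per genotype), a difference of -0.333 (exact two-sided permutation test, p = 1, adjusted p = 1 over 3 measures). With 3 libraries against 3 this test cannot give a p below 0.1.

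Sequence around the start was compared next, because these promoters were open in nearly every library and their letters show what the open stretch contains. RefSeq windows (GRCm38.p6) of 250 bases before to 50 after the transcript start were at hand for 29 of the 41 genes and for 17492 protein-coding genes, of which 11702 had a promoter peak in all 6 libraries. Counts below are matches to fixed letters on either strand, which are descriptions and not binding sites. GCGGGAA, a core of sites for E2F factors that drive S-phase genes, was found in 13 of 29 windows (44.8%), in 6.01% of all windows and in 8.31% of windows of genes with a peak in every library. Among 47 further repair genes from a second list it was found in 10 windows (21.3%), and among 2874 windows of genes with a peak in every library and a divergent neighbour in 9.88%. CCGGAAG, the core read by ETS factors, was found in 9 of 29 windows (31.0%) against 11.9% of all, 16.2% of those with a peak and 36.2% of the second list, so this share was no higher than in other repair genes. GGGCGG, the GC box, was in 21 (72.4%) against 46.3%, 62.8% and 68.1% of the same 3 sets, and CCAAT was in 16 (55.2%) against 39.2%, 38.6% and 51.1%. GCATGCGC, the core of NRF1 sites, was in 3 (10.3%) against 3.61%, 5.01% and 12.8%, and TGACGTCA, the cyclic AMP response element, was in 1 (3.45%, at Brca2) against 2.33%, 3.07% and 2.13%. The median window of the repair genes held 22 CpG dinucleotides, against 13 over all windows and 20 over those with a peak, and 59.7% G or C against 56.3% and 60.7%.

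**Figure D1:**
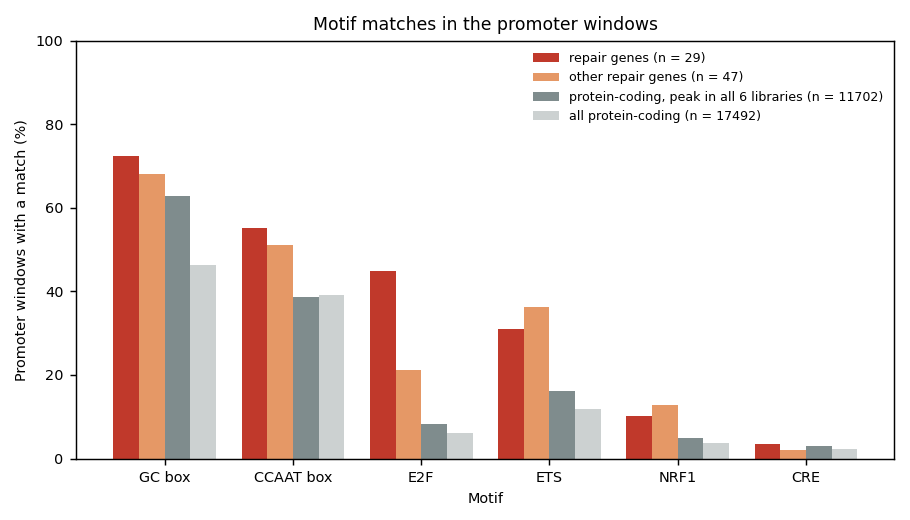
Share of promoter windows (vertical axis, percent) that hold each motif on either strand, for the repair genes, the second list of repair genes, protein-coding genes with a promoter peak in all 6 libraries, and all protein-coding genes. The E2F core is found in 44.8% of the repair gene windows and 8.31% of the windows of genes with a peak in every library, the widest gap among the 6 motifs relative to that background.

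The 14 matches to the E2F core are printed with up to 9 bases on each side, since among the 6 motifs this one had the share farthest from its background. Capitals mark the core, and each stretch is written 5′ to 3′ on the strand named, so that the core reads in 1 direction throughout. All 14 lay inside a called peak in all 6 libraries, with 10 before the transcript start, 1 across it and 3 after it, and 9 began, read along the gene, within 100 bases of it. At Xrcc4, Rad51c, Atm and Chek2 a neighbour (Tmem167, Tex14, Npat and Hscb) began on the opposite strand within 100 bases. The cores at these shared promoters cannot be assigned to either gene.
Xrcc4 (chr13:90089693-90089717, plus strand): ctggagcgaGCGGGAAgcacagcgg
Xrcc6 (chr15:82016314-82016338, plus strand): ggggtggaaGCGGGAAatgcgagtg
Polq (chr16:37011787-37011811, plus strand): aagatggagGCGGGAAgatggaggc
Brca2 (chr5:150522444-150522468, plus strand): taggccacaGCGGGAAacagacaca
Bard1 (chr1:71103165-71103189, plus strand): acttcctgaGCGGGAAactgagcgg
Rad51c (chr11:87404944-87404968, minus strand): cccgcgaggGCGGGAAaagcaaggg
Rad52 (chr6:119902557-119902581, plus strand): gctgcggctGCGGGAAggctgatcg
Atm (chr9:53536641-53536665, minus strand): gagccggaaGCGGGAAggcgtgcgt
Chek1 (chr9:36726609-36726624, minus strand): caggttttgGCGGGAA
Chek2 (chr5:110839822-110839846, plus strand): ggattagccGCGGGAAaccaagacg
Mdc1 (chr17:35841360-35841384, plus strand): gaaatctgcGCGGGAAgtagtccgt
Mdc1 second match (chr17:35841474-35841498, minus strand): cggctaccgGCGGGAAacaggctga
Rnf8 (chr17:29614756-29614780, minus strand): gggaggcggGCGGGAAgtgcgcagg
Rnf168 (chr16:32277416-32277440, plus strand): gcaggctagGCGGGAAcgcagacgc

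Mdc1, a scaffold that binds phosphorylated H2AX, was the gene with 2 cores, 129 and 15 bases before its start. The core of Rad51c began 5 bases before the start and ran across it. The core lay 10 bases after that of Polq, 15 after that of Atm and 43 after that of Chek1, where the window ends with the core.

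The 250 bases before the start are printed for 4 genes whose stretch holds no other gene's 5′ end. Mdc1 had the narrowest promoter peak, Rnf8 the largest fitted difference toward S7KO, Chek1 the only widths that did not overlap between genotypes, and Rad51b the most gene body peaks. Capitals mark matches to any of the 6 motifs on either strand, and in Rnf8 an E2F core and a GC box overlap.
Mdc1 (chr17:35841248-35841497, plus strand): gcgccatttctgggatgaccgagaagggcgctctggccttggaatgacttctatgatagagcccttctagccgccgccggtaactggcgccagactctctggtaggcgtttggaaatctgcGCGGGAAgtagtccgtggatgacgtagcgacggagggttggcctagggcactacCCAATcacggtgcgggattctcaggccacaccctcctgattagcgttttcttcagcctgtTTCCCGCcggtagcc
Rnf8 (chr17:29614539-29614788, plus strand): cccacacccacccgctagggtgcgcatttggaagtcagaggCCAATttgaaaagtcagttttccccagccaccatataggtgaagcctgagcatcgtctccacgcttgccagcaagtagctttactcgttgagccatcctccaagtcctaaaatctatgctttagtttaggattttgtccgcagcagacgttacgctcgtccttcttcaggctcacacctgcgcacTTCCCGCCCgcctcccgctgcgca
Chek1 (chr9:36726659-36726908, minus strand): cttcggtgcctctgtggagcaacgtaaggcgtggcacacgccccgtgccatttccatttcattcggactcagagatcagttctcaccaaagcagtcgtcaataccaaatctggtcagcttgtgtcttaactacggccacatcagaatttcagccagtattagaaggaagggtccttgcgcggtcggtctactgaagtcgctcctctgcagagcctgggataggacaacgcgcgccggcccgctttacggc
Rad51b (chr12:79297032-79297281, plus strand): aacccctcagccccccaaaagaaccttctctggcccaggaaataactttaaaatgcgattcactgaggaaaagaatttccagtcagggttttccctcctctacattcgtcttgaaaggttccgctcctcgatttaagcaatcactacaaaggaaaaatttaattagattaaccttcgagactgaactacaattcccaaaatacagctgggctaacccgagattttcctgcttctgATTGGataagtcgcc

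A peak covered the whole of each of these stretches in all 6 libraries. Those of Chek1 and Rad51b held no E2F core and no GC box, and that of Rad51b was the least rich in G and C of the 4, at 42.8%, with 7 CpG dinucleotides against 19 in Mdc1.

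The repair gene promoter peaks were narrower than those of the median gene and had higher fold enrichment. Among the 39 genes with a peak in every library the median of the mean widths was 1288 bp (quartiles 1144 and 1556 bp), and over 14630 protein-coding genes it was 1430 bp (1138 and 1830 bp). Of the 39, 26 were narrower than the median gene, 10 lay below the lower quartile and 7 above the upper. Widths repeated closely between libraries, with a median coefficient of variation over the 6 libraries of 5.05%, against 5.59% over all genes. Fold enrichment, the reads in a peak relative to the local background as the peak caller gives it, had a median over the repair genes between 6.01 and 6.37 per library, and between 4.79 and 4.99 over all genes. When the peaks of a library were ordered by q-value, the repair gene promoters had a median rank of 3.55% from the top and all promoters 7.7%. In each library 24 to 29 of the 39 stood in the top 5%, where 32.6% to 40.2% of all promoter peaks stood. Over the 39 genes wider peaks had lower fold enrichment (Spearman's rho -0.728, n = 39 genes in the same 6 libraries), as over all 14630 genes (-0.499). Both values describe the same called peak and are not separate measurements. How far the peak caller itself ties them was not tested. These comparisons with all genes are descriptions of 1 named set and were not tested.

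**Figure D2:**
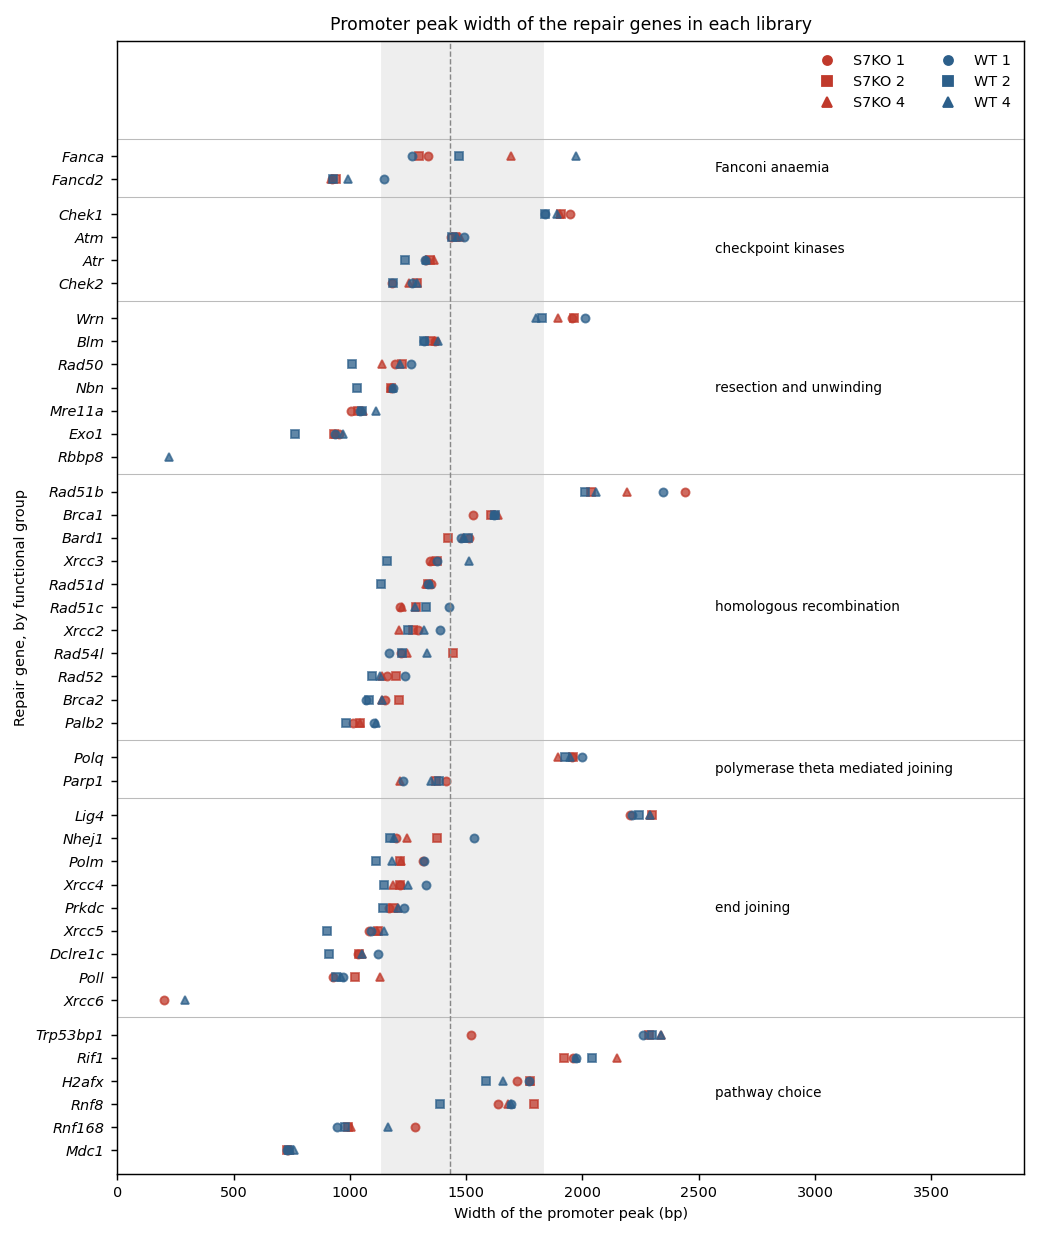
Width of the promoter peak in bp (horizontal axis) for each repair gene, grouped by function, with 1 point per library (colour for genotype, shape for replicate). The grey band spans the quartiles of all protein-coding genes, 1138 to 1830 bp, and the dashed line their median of 1430 bp, and the points of both genotypes mix at nearly every gene.

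The pathway choice genes held some of the widest promoters and the narrowest. Trp53bp1, whose product shields broken ends from resection, had widths of 1520, 2286 and 2336 bp in S7KO replicates 1, 2 and 4 and 2260, 2298 and 2339 bp in WT, so a single S7KO library was far narrower than the other 5. Rif1, its partner in end protection, had 1958, 1920 and 2150 bp in S7KO and 1972, 2040 and 1971 bp in WT, which overlapped. Mdc1 had 736, 728 and 743 bp in S7KO and 728, 739 and 762 bp in WT, the narrowest promoter of the set, with its rank between 0.213% and 0.367% of the list. H2afx, the histone variant that is phosphorylated at breaks, had a mean width of 1714 bp. The ubiquitin ligases Rnf8 and Rnf168, which mark the chromatin around a break, had mean widths of 1648 and 1061 bp.

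The Trp53bp1 peak at the 5′ end of the gene table was weak for a repair gene, with a fold enrichment between 2.62 and 3.2 and a rank between 22.2% and 37.2%. The RefSeq transcript start lies 24947 bp away inside the gene (chromosome 2, minus strand, position 121271407). There the peak was 1093, 1335 and 1269 bp wide in S7KO and 1336, 1311 and 1268 bp in WT, with ranks between 2.33% and 4.34%. Of both starts, the inner one thus had the more highly ranked peak in every library. It was not always the top peak of the gene. In S7KO replicate 2 and WT replicates 1 and 2 that peak lay 6227 to 6256 bp inside the table's 5′ end, at ranks from 2.6% to 4.24%.

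Among the end joining genes, 8 of 9 had a promoter peak in every library, with a median width of 1207 bp. Lig4, the ligase of this route, had 2204, 2301 and 2292 bp in S7KO and 2215, 2245 and 2291 bp in WT, the widest promoter of all 39. Poll, a gap-filling polymerase, was among the narrowest with 929, 1023 and 1128 bp in S7KO and 971, 940 and 961 bp in WT. The end-binding kinase gene Prkdc and the ligase cofactor gene Xrcc4 had mean widths of 1190 and 1224 bp and some of the most highly ranked peaks, at 0.0953% to 0.23% and 0.186% to 0.413% of their lists. Mean widths were 1076 bp at Xrcc5, which encodes a Ku subunit, 1035 bp at the nuclease gene Dclre1c, 1285 bp at Nhej1, which encodes a factor that aligns the ends, and 1227 bp at the polymerase gene Polm.

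Xrcc6, which encodes the other Ku subunit, was the exception. At the gene table's 5′ end (chromosome 15, plus strand, position 81987833) a peak lay within 1 kb only in S7KO replicate 1, at 201 bp, and in WT replicate 4, at 293 bp. Its RefSeq transcript start lies 28536 bp farther in, at position 82016369. A peak covered that start in all 6 libraries, 1690, 1695 and 1633 bp wide in S7KO and 1736, 1731 and 1578 bp in WT, with ranks from 1.95% to 3.28%. The low count at Xrcc6 thus belonged to the table's outer 5′ end.

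Polq, the polymerase of theta-mediated joining, had 1957, 1959 and 1894 bp in S7KO and 1997, 1923 and 1947 bp in WT. The mean width at Parp1, whose product senses strand breaks, was 1328 bp. Fold enrichment was alike at both, with means of 6.19 and 6.23.

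Genes of resection and unwinding ranged widely. They included the highest median rank of the set, at Mre11a, and the highest mean fold enrichment, at Exo1. Wrn had a mean fold enrichment of 4.16 and a median rank of 5.89%. Mre11a, the nuclease of the complex that first processes an end, ranked at 0.0651%, 0.0422% and 0.0375% of the list in S7KO and 0.0336%, 0.154% and 0.0539% in WT, the highest median rank of all 39, with widths of 1005 to 1113 bp. Its partner genes Nbn and Rad50 had mean widths of 1156 and 1174 bp. Exo1, a nuclease of long-range resection, had 954, 931 and 938 bp in S7KO and 937, 766 and 969 bp in WT, and the highest mean fold enrichment, 9.66. The narrow value came from WT replicate 2, the library with the fewest peaks. The helicase genes Wrn and Blm differed from each other. Wrn had 1956, 1962 and 1893 bp in S7KO and 2010, 1828 and 1801 bp in WT, and the mean width at Blm was 1348 bp.

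Rbbp8, which encodes the factor that starts resection, was the other exception. Only WT replicate 4 had a peak within 1 kb of its 5′ end, at 223 bp and rank 97.4%, near the bottom of the list. The most highly ranked peak of the gene lay between 23565 and 23713 bp inside it in all 6 libraries, 1513, 1476 and 1513 bp wide in S7KO and 1479, 1289 and 1382 bp in WT, with ranks from 1.89% to 3.82%. No RefSeq start was given for this gene in the promoter table, so its distance from an annotated transcript start was not measured.

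All 11 homologous recombination genes had a promoter peak in every library, with a median width of 1293 bp. Rad51b, which acts in the strand-exchange step, had 2441, 2036 and 2190 bp in S7KO and 2345, 2011 and 2060 bp in WT. The related genes Rad51c, Rad51d, Xrcc2 and Xrcc3 had mean widths between 1288 and 1354 bp. Brca1 and its partner Bard1 had 1606 and 1482 bp. Palb2 and Brca2, which act together with Brca1 in this route, were narrower at 1050 and 1132 bp. Rad52 and Rad54l, which act in annealing and in strand exchange, had 1160 and 1272 bp.

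The checkpoint kinase genes had mean widths of 1458 bp at Atm, 1320 bp at Atr, 1888 bp at Chek1 and 1244 bp at Chek2. Chek2 ranked between 0.0451% and 0.155% in its lists. Of the Fanconi anaemia genes, which act on crosslinked DNA, Fanca had 1334, 1296 and 1695 bp in S7KO and 1269, 1471 and 1972 bp in WT, with the widest relative spread of the set, 18.4%, and the widest value of each genotype in replicate 4. Fancd2 had 923, 941 and 921 bp in S7KO and 1145, 927 and 991 bp in WT.

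**Figure D3:**
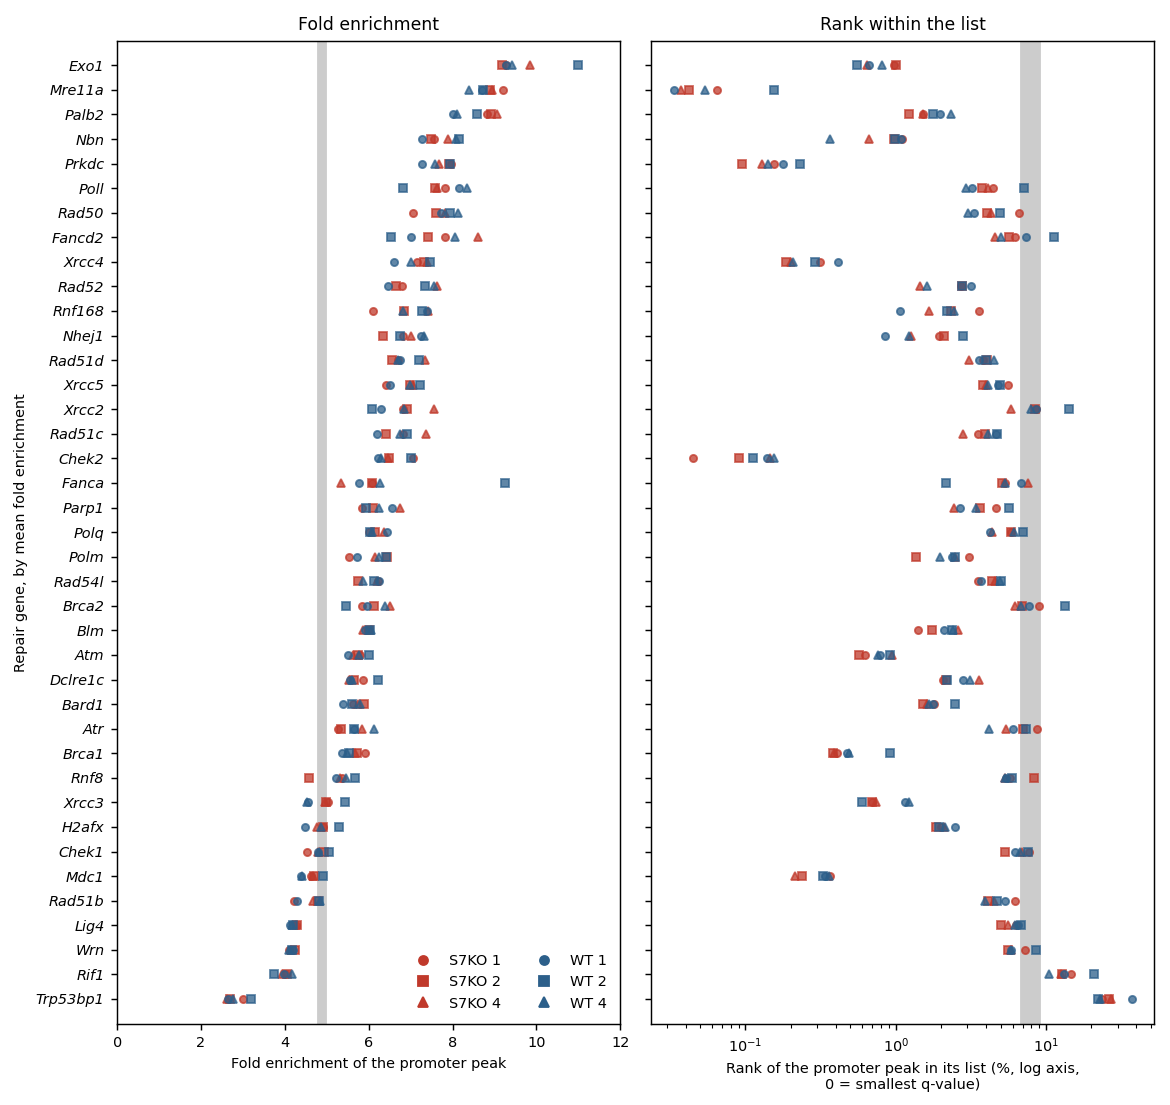
Fold enrichment of the promoter peak (left, linear axis) and its rank by q-value within its list in percent (right, log axis) for the 39 repair genes with a peak in every library, 1 point per library. Grey bands span the library medians of all protein-coding genes (4.79 to 4.99 and 6.84% to 9.21%), and 30 of the 39 genes have a mean fold enrichment above 5.

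Many of these promoters were shared with a neighbour. At 18 of the 41 genes another gene began on the opposite strand within 1 kb, and 13 of those starts lay within 100 bp. Such a neighbour was less frequent over all protein-coding genes, at 17.2%, and at 23.6% of the 14630 with a promoter peak in every library. The closest pairs of protein-coding genes were Fancd2 and Emc3 at 2 bp, Chek2 and Hscb at 7 bp, and Poll and Dpcd at 19 bp. Prkdc lay 44 bp from Mcm4, which encodes a subunit of the replicative helicase, Atm 61 bp from Npat, which encodes an activator of histone genes, and Brca1 152 bp from Nbr1. The partner was a long noncoding RNA gene at 3 of the 18 (Rad54l, Exo1 and Parp1). In every case 1 peak covered both starts in all 6 libraries, so its width and enrichment cannot be assigned to either gene. Median rank was 2.6% at the shared repair gene promoters and 3.9% at the others, and 4.03% and 9.52% over all genes. Median width was 1283 and 1288 bp. Of the 10 repair genes whose median rank was under 1%, 8 shared their promoter in this way. Over all genes, 45.7% of those with such a rank did, against 23.6% of all 14630 genes.

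Promoter widths did not separate the genotypes. The median width over the 39 genes was 1292, 1296 and 1245 bp in S7KO replicates 1, 2 and 4 and 1320, 1186 and 1319 bp in WT. The S7KO mean was 1278 ± 28.4 bp against a WT mean of 1275 ± 77.1 bp (SD, n = 3 per genotype), a difference of 2.67 bp that was smaller than the spread of either genotype (exact two-sided permutation test, p = 1, adjusted p = 1). The lowest value, in WT replicate 2, was also that of the list with the fewest peaks. The difference was -41.8 bp without that library, and also fell below 0 without S7KO replicate 1 (-4.5 bp) or S7KO replicate 2 (-6.5 bp). Without S7KO replicate 4, WT replicate 1 or WT replicate 4 it was 19, 25.2 or 24.7 bp.

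Gene by gene, limma on the log2 widths of all 14630 genes called 11 promoters wider in S7KO (0.0752%) and 3 wider in WT (0.0205%) at an adjusted p under 0.05. None of the 39 repair genes was among them, none had an unadjusted p under 0.05, and the smallest adjusted p was 0.986. The log2 difference, S7KO minus WT, lay between -0.19 and 0.10, was above 0 at 23 genes and below 0 at 16, and had a median of 0.014. Over all 14630 genes it was above 0 at 9989 and below 0 at 4641, with a median of 0.025. WT replicate 2 had the narrowest promoters over all genes, with a median width of 1325 bp. Without that library the median log2 difference was -0.0010 over all genes and -0.018 in the repair genes. With all libraries, the repair gene differences at either end were those of Trp53bp1 (-0.19 ± 0.18, SE) and Rnf8 (0.10 ± 0.093, SE). At Trp53bp1 the SD of the widths was 457 bp in S7KO, where replicate 1 was narrow, and 39.5 bp in WT.

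**Figure D4:**
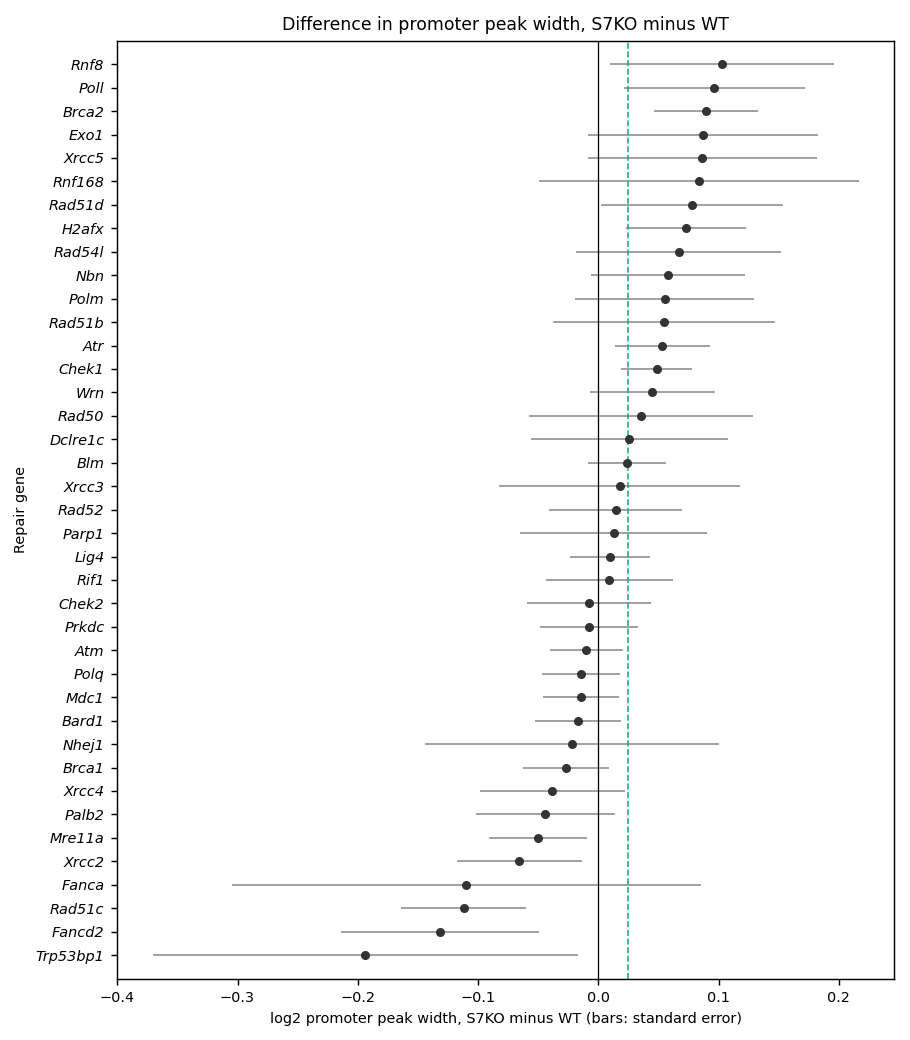
Difference in log2 promoter peak width, S7KO minus WT (horizontal axis), for the 39 repair genes, ordered by its size, with the standard error from limma as bars. The dashed line marks the median over all protein-coding genes, 0.025, and the repair genes run from -0.19 to 0.10 with no adjusted p below 0.986.

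Chek1, which encodes the kinase that acts below ATR, was the only gene whose 3 widths in S7KO all exceeded the 3 in WT. They were 1947, 1908 and 1903 bp in S7KO and 1839, 1839 and 1890 bp in WT, a log2 difference of 0.048 ± 0.030 (SE, limma adjusted p = 0.986). Of all genes tested, 6.86% had S7KO widths wholly above WT, so 1 of 39 is no more than the background. No repair gene had WT widths wholly above S7KO, as 1.65% of all genes did. Without WT replicate 2 the shares over all genes were 8.54% with S7KO wider and 8.99% with WT wider. The repair genes so placed then numbered 1 and 5. Ranks within the list were wholly nearer the top in S7KO at 3 of the 39 genes, Brca1, Palb2 and Rad51c, where 5.13% of all genes were, and wholly nearer the top in WT at 0, where 1.24% were. Brca1 ranked at 0.405%, 0.383% and 0.389% in S7KO and 0.476%, 0.912% and 0.489% in WT, while its widths overlapped. Rad51c ranked at 3.52%, 3.91% and 2.82% in S7KO and 4.66%, 4.72% and 4.12% in WT. Palb2 ranked at 1.52%, 1.23% and 1.53% in S7KO and 1.96%, 1.77% and 2.32% in WT. A rank is a place within 1 list and is no measure of signal between libraries.

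Peak numbers in the gene bodies varied between libraries of the same genotype. Outside 1 kb of the 5′ ends, the 41 genes held 99, 107 and 115 peaks in S7KO replicates 1, 2 and 4 and 94, 78 and 125 in WT. The S7KO mean was 107 ± 8 against a WT mean of 99 ± 23.9 (SD, n = 3 per genotype), and the difference of 8 was smaller than the WT spread (exact two-sided permutation test, p = 0.6, adjusted p = 1). The lowest and highest counts belonged to the lists with the fewest and the most peaks. With an equal number of peaks taken from each list the means were 88 in S7KO and 82.67 in WT, a difference of 5.33. Without WT replicate 2 the difference turned to -2.5, without WT replicate 4 it was 21, and without S7KO replicate 4 it was 4. No repair gene had body peak numbers that did not overlap between genotypes, as 0.736% of protein-coding genes did with more in S7KO and 0.112% with more in WT.

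Body peaks were spread unevenly over the genes. Rad51b, which spans 550.98 kb, held 35, 37 and 40 peaks in S7KO and 34, 26 and 38 in WT. Prkdc held 7 in each S7KO library and 5, 4 and 7 in WT. Blm held 5, 5 and 6 in S7KO and 5, 5 and 7 in WT. Atm held 5 in each S7KO library and 4, 3 and 5 in WT, and Trp53bp1 5, 4 and 4 in S7KO and 5, 3 and 6 in WT. The Trp53bp1 counts include the peak at its RefSeq start, 24947 bp inside the table's 5′ end. Counted from RefSeq starts, the body peaks of all repair genes averaged 106 in S7KO and 98 in WT. A body peak was found in all 6 libraries at 22 genes and in none at 9 (Lig4, Poll, Polm, Xrcc2, Xrcc3, Chek1, Rnf168, H2afx and Exo1). Repair genes were long, with a median of 50.2 kb among the 39 against 17.5 kb over all genes with a promoter peak. Per 10 kb of gene the median repair gene held between 0.153 and 0.34 peaks per library and the median protein-coding gene between 0.154 and 0.335. Summed over genes the density was 0.266 to 0.426 in the repair genes and 0.443 to 0.584 over all.

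**Figure D5:**
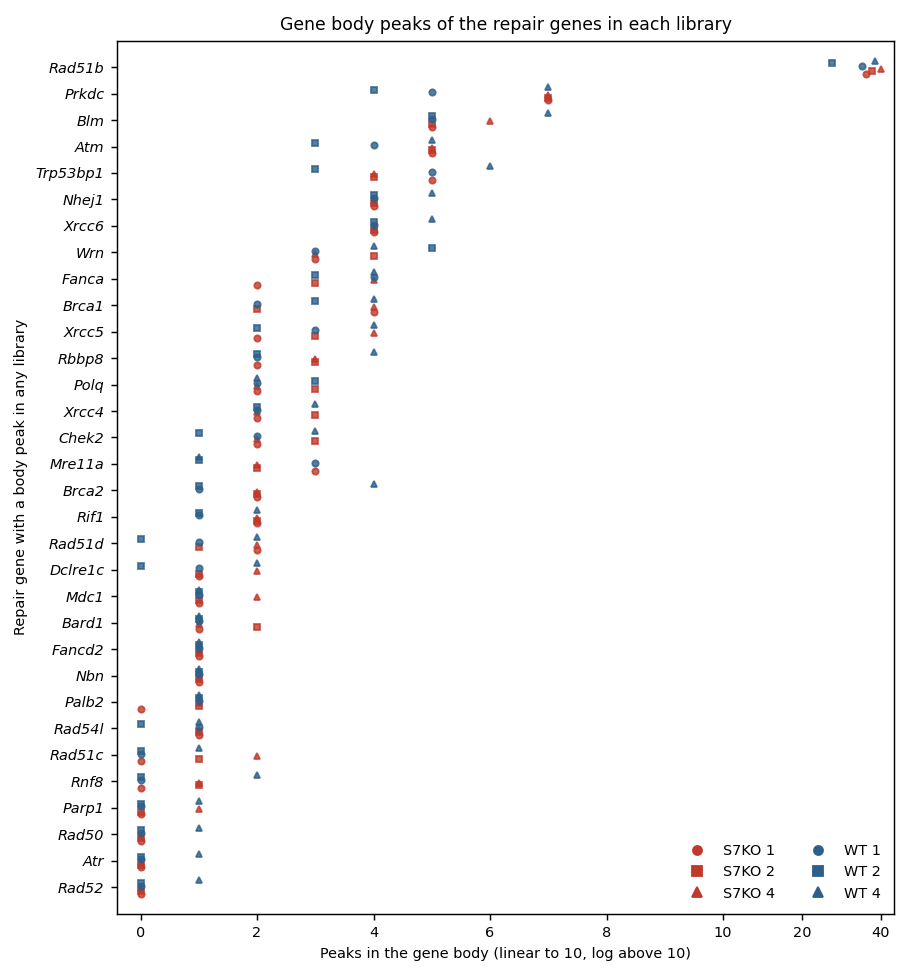
Number of peaks in the gene body (horizontal axis, linear up to 10 and logarithmic above) for the repair genes with such a peak in any library, 1 point per library. Rad51b stands apart with 26 to 40 peaks, and the remaining genes hold 7 or fewer in every library.

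When the peaks of the 6 libraries were merged, 191 regions touched a repair gene or lay within 3 kb of its 5′ end, and 107 of these (56%) were called in all 6 libraries, as were 57.1% of all 158725 merged regions. A single library called 25 of them (13.1%), against 13.6% overall. Of the 148 regions in gene bodies, 67 were called in all 6 libraries, and 100 remained without Rad51b, which alone held 48, of which 23 were called in every library. The 5′ end of another gene lay at 6 body regions. No region at a repair gene was called in all 3 libraries of 1 genotype and in none of the other. Among all merged regions 0.416% were so called in S7KO and 0.0743% in WT.

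The second list of repair genes, 54 genes that include the meiotic gene Dmc1, the replication protein A subunits and further Fanconi anaemia genes, showed the same state. A promoter peak was found in all 6 libraries at 52 of them, the exceptions being Rad9a and Paxx, with a median width of 1230 bp. None was called by limma. Of the 52, 4 had S7KO widths wholly above WT, where 6.86% of all genes did, and 0 had the reverse, where 1.65% did. A divergent neighbour lay at 29 of the 54, against 17.2% of all protein-coding genes and 23.6% of those with a promoter peak in every library.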

How the data were processed

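ATAC-seq libraries of 3 S7KO and 3 WT samples were analysed from 6 deposited peak lists. Per the study's methods, the authors trimmed reads with Trim Galore 0.6.6, aligned them to mm10 with Bowtie2 2.4.4.1, kept unique and non-duplicate reads, removed mitochondrial reads, shifted Tn5 insertions, kept a range of fragment sizes that left out the shortest, and called broad peaks with MACS2 2.2.5. The study's results speak instead of merged profiles of nucleosome-free fragments, and the lists do not tell which fragments were used. These steps bear on peak width. Each list covered 1 sample. The lists as deposited hold a score, a fold enrichment and −log10 of p and q per peak, and the largest q was 0.0983. The score was not used. Read depth is unknown.

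Promoter peaks were those that covered the 5′ end, or the nearest within 1 kb. Genes came from a RefSeq table (GRCm38.p6, the assembly of mm10), with strand from the RefSeq promoter table and otherwise from GENCODE by symbol (strands differed at 104 of 15832 genes in both, none of them a repair gene). Peaks on chromosomes 1 to 19, X and Y were used. Widths were compared on the log2 scale with limma 3.58.1 (R 4.3.3) and adjusted by Benjamini-Hochberg over 14630 genes. The limma fit was tested on simulated data whose changes were far larger than any at the repair genes. It thus does not show whether differences as small as theirs would be called. Library totals were compared by an exact permutation test over 20 assignments. Values per library were given for genes without a promoter peak in some library, the 4 widest and 4 narrowest promoters, the widest of each functional group, widths that did not overlap, and the 4 genes with most body peaks. Mre11a, the 3 genes of the rank comparison and the sequences shown were chosen after their values were seen. The genes, lists and tests were chosen with earlier results of these data known. Replicate numbers came from sample titles, and a second label of some samples bears another number. Windows, peak thresholds, list length, width measure, scaling, replicate block and left-out libraries were varied, and RefSeq starts were added after seeing the data. A gene of the second list is not reported here.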

Additional observations from a re-analysis of the deposited data

How the results depend on the processing

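No repair gene was called by limma under any alternative run. The difference in genes with a promoter peak was 0 with −log10 q of at least 3 or with equal list lengths, and ran from -0.667 to 0.333 when 1 library was left out, above 0 only without WT replicate 4. The difference in median width was -1.5 bp with a 3 kb window, -5.33 bp for covered length, -29.1 bp after quantile normalisation and -51 bp in replicates 1 and 4 only, and lay between -41.8 bp (WT replicate 2 omitted) and 25.2 bp (WT replicate 1 omitted). The difference in body peaks was -2.5 in replicates 1 and 4 only and, with 1 library left out, lay between -2.5 (WT replicate 2 omitted) and 21 (WT replicate 4 omitted). Over all genes limma called 14 promoters, 3 for covered length, 7 in replicates 1 and 4 only, and 11 to 40 with 1 library left out, with 40 without S7KO replicate 4 or WT replicate 1, 30 without WT replicate 4 and 22 without WT replicate 2. Repair genes with wholly wider S7KO widths numbered 1 (all genes 6.86%), 0 after quantile normalisation (2.61%) and 1 to 6 with 1 library left out (8.54% to 19.4%; 6 without WT replicate 1, 5 without WT replicate 4 or S7KO replicate 1, 2 without S7KO replicate 4). Those with wider WT widths numbered 0 (1.65%), 6 after quantile normalisation (6.25%), 10 in replicates 1 and 4 only (16.3%), and 0 to 5 with 1 library left out (2.95% to 8.99%; 5 without WT replicate 2, 3 without S7KO replicate 4, 2 without S7KO replicate 2, 1 without WT replicate 4). Fewer libraries overlap less by construction. Regions at repair genes called only in S7KO numbered 1 of 160 with −log10 q of at least 3, where 0.297% of all regions were. With equal list lengths it was also 1 of 160 (0.231%). Of 191 regions, 1 was so called when 50% of a region had to be covered (0.571%) and 2 in replicates 1 and 4 only (1.16%). With 1 library left out, 8 of 191 were so called without WT replicate 4 (1.80%) and 2 without S7KO replicate 2 (0.917%). It was 1 without S7KO replicate 1 (1.26%) or WT replicate 1 (1.07%), and 0 without S7KO replicate 4 (0.897%) or WT replicate 2 (0.583%). Regions at repair genes called only in WT numbered 2 of 191 in replicates 1 and 4 only, where 0.996% of all regions were. With 1 library left out it was 2 without WT replicate 1 (0.313%) or WT replicate 2 (0.503%). It was 1 without WT replicate 4 (0.160%) or S7KO replicate 4 (0.271%), and 0 without S7KO replicate 1 (0.152%) or S7KO replicate 2 (0.210%). The cause of these shifts was not tested. After quantile normalisation the median log2 width difference was -0.026 in the repair genes and -0.020 over all genes. Whether same-numbered libraries shared a litter or batch is not stated and was not tested. Deviations of same-numbered libraries correlated at 0.0736, -0.0118 and 0.108, and those of differently numbered pairs at -0.103 to 0.0183. With a replicate block limma called 0 genes, and the block left differences of -0.333 genes (exact sign-flip permutation p = 1), 2.67 bp (p = 1) and 8 peaks (p = 0.75), where 3 pairs cannot give a p below 0.25. Peak presence and width at unknown depth cannot show changes of signal within a peak.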
